A study of Homo sapiens with 48 samples.

Results

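TCCSUP is an established line from a human transitional cell carcinoma of the urinary bladder. The expression of its untreated cells was described from its 3 DMSO libraries, set against the 21 DMSO libraries of 7 other bladder cancer lines, out of 48 libraries in all. TCCSUP was compared with HT1197, HT1376, KU1919, SW780, T24, 639V and VMCUB, and each of these lines counted as 1 unit with 3 libraries. All 24 libraries carried the DMSO vehicle, and the series compared it in each line with CPI-0209, an EZH2 inhibitor given for 4 days at 250 nM. TCCSUP, HT1197 and HT1376 were kept in MEM with non-essential amino acids and pyruvate, SW780, VMCUB and 639V in DMEM, KU1919 in RPMI1640 and T24 in McCoy's 5A, all with serum. Each line stands for 1 tumour, so a difference between TCCSUP and the rest belongs to this line and not to a class of tumours.

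The lining of the bladder is the urothelium, whose luminal cells make uroplakins and simple keratins under GATA3, FOXA1 and PPARG, and whose basal cells express TP63 and the keratins KRT5 and KRT14. Epithelial cells hold together through E-cadherin, desmosomes and tight junctions, and the factors ZEB1, ZEB2, SNAI1 and TWIST1 can repress these genes during a transition to a mesenchymal state. Fibroblasts and smooth muscle cells of the bladder wall are mesenchymal and are known for fibrillar collagens, small proteoglycans and the actin-binding proteins of the contractile apparatus.

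Total counts were 33167319 to 40049843 in the TCCSUP libraries and 29759605 to 49358560 over all 24. TCCSUP replicate 1 stood somewhat apart from replicates 2 and 3: mitochondrial genes took 1.75% of its counts, and up to 3.68% in the others. The counts without it are given beside the first results. Levels are CPM, counts scaled to library size by TMM, not divided by gene length, so that they compare libraries and not genes. The labels do not say that the 3 libraries of a line came from separate cultures, so the spread between them may be technical. These were bulk libraries, in which a few cells with much of an RNA and many cells with little of it cannot be told apart.

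With the line as the unit, 74 of 21498 genes were higher in TCCSUP than in the other 7 lines (0.344%) and 2 were lower (0.0093%). The test was edgeR's quasi-likelihood test on summed counts at an adjusted p of 0.05. By the same test 1146 genes had an unadjusted p under 0.05, which is near the share of 0.05 that chance alone would give. The counts depended on the tool, with 321 higher and 256 lower by DESeq2 and 99 and 22 by limma-trend. Without TCCSUP replicate 1 the edgeR counts were also 74 and 2. Leaving out VMCUB gave the smallest number of higher genes, 25. A single value of 1 line against 7 cannot reach a p of 0.05 in an exact permutation test, so this test rests on the spread that edgeR estimated across genes.

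A second measure asked whether TCCSUP stood apart from each of the 7 lines in turn, with at least a 2-fold difference and an adjusted p under 0.05 in all 7 contrasts of the 24 libraries. It placed 755 of 18643 genes above each other line (4.05%) and 259 below each (1.39%). These calls rest on the spread between libraries within a line. HT1197 and HT1376 shared the medium of TCCSUP and the other lines did not, and the part of the medium in these calls was not tested.

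The same measure in the same fit found 786 genes above and 554 below for HT1197, 754 and 397 for HT1376, 555 and 207 for KU1919, and 402 and 248 for SW780. For 639V it found 438 above and 493 below, for VMCUB 293 and 378, and for T24 179 and 165. TCCSUP thus came second to HT1197 in genes above each of the rest, while its number below each was in the middle of the 8. Across 18480 genes the log2 profile of TCCSUP was closest to that of T24 (Pearson r = 0.885) and farthest from that of HT1197 (0.819), where pairs among the other lines spanned 0.795 to 0.911. These are correlations over genes of the same libraries and are given as a description.

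**Figure D1:**
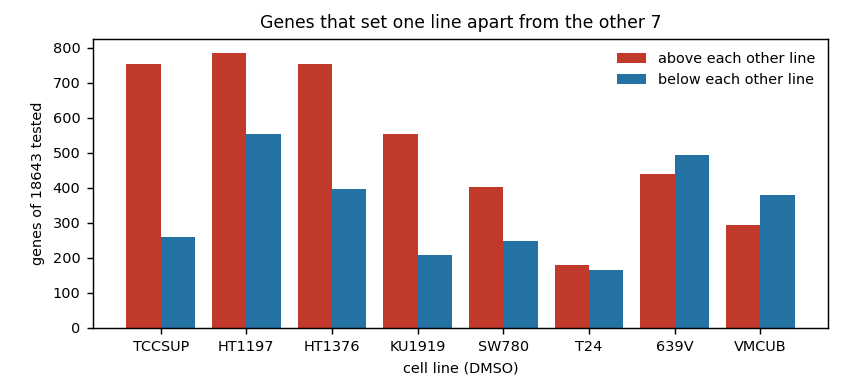
Number of genes, of 18643 tested, that stood at least 2-fold above (red) or below (blue) every other line at an adjusted p under 0.05 (y axis), for each of the 8 lines under DMSO (x axis). TCCSUP had 755 above and 259 below.

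The promoters below are shown because members of the contractile and junction gene groups were among those that set TCCSUP apart. Each is the RefSeq sequence on GRCh38.p14 from 250 bases before to 50 bases after the transcript start. For ACTG2, the enteric smooth muscle actin (chr2:73892758-73893057, plus strand), MYLK, the myosin light chain kinase (chr3:123620499-123620798, minus strand), and CNN1, calponin (chr19:11538601-11538900, plus strand), capitals mark the CArG box, the site that serum response factor binds in smooth muscle genes. For DSP, desmoplakin (chr6:7541421-7541720, plus strand), capitals mark CACCTG or its reverse complement CAGGTG, the E-box that ZEB and SNAI factors bind.
ACTG2: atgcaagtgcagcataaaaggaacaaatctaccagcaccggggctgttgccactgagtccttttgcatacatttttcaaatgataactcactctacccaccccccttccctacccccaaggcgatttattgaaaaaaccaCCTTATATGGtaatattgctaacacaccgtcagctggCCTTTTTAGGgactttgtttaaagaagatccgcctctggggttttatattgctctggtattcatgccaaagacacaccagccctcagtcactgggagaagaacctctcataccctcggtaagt
MYLK: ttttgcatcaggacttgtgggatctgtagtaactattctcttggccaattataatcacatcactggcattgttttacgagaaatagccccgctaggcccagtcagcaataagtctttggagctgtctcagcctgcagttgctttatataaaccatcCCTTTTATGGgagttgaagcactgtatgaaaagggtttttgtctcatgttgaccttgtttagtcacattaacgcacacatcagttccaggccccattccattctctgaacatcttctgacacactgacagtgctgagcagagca
CNN1: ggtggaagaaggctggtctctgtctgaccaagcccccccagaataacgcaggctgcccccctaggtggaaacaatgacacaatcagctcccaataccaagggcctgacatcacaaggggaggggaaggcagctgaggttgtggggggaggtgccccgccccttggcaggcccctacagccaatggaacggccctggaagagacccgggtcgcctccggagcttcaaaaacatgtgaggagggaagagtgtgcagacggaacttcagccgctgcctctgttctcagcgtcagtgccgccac
DSP: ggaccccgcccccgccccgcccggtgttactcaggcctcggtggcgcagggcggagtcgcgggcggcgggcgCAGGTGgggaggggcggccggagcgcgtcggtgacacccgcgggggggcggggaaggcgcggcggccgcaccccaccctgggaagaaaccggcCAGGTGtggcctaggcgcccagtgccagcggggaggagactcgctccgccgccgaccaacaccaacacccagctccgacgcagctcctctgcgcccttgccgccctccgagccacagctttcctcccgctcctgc

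The table held promoters for 9 of the 13 smooth muscle genes, and 3 of these genes (ACTG2, MYLK and SMTN) had a CArG box in at least 1 promoter (33.3%), where 1.6% of all 27305 genes did. Counted by promoter this was 3 of 17, where 1.29% of all 35116 promoters held one. CNN1 had none in this window, and SMTN was not among the smooth muscle genes above each other line. Of the 30 epithelial junction and splicing genes 15 had a promoter in the table, and 10 of the 15 held CACCTG or CAGGTG (66.7%), where 24.1% of all genes did. Counted by promoter this was 11 of 20, where 20.6% of all promoters did. Of the 5 genes of this list that stood below each other line, only DSP was among the 10. The motifs were searched on both strands. The promoter of LSR held neither E-box. A match is a description of the reference sequence, which was not read from TCCSUP, and not a bound site.

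The genes that TCCSUP expressed and the other lines nearly lacked came first in the rule for named genes, which took the widest gap to the nearest other line among genes called by both measures. A2M, a broad plasma protease inhibitor (chr12:9067664-9116229), had 462, 551 and 554 CPM in TCCSUP, against 0.0641 to 0.386 CPM in the other 21 libraries (median 0.153). Its mean of 522 CPM ± 52.6 (SD, n = 3) was 2050 times that of VMCUB, the next line. The log2 difference with the line as the unit was 11.67 ± 0.43 (SE), with an adjusted p of 4.89e-05 by edgeR. Each SE of this kind was derived from the log2 difference and the F statistic of its test. It holds no measured spread of TCCSUP, which entered as a single sum. No other line overlapped TCCSUP at this gene, as the rule required.

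DCN, decorin, a proteoglycan that binds collagen fibrils (chr12:91140484-91183123), had 316, 308 and 326 CPM in TCCSUP and 0.067 to 0.616 CPM in the other libraries (median 0.178). Its log2 difference was 10.34 ± 0.68 (edgeR adjusted p = 0.00188). CNN1 had 142, 161 and 174 CPM in TCCSUP and 0.0545 to 0.456 CPM elsewhere (median 0.166), a log2 difference of 9.69 ± 0.57 (edgeR adjusted p = 0.00109). ACTG2 had 173, 216 and 234 CPM in TCCSUP and 0.0534 to 0.791 CPM elsewhere (median 0.299), with a difference of 9.19 ± 0.73 (edgeR adjusted p = 0.00392). These are genes of matrix and of contractile cells. They were picked for their gap to the nearest line, so the lack of overlap with other libraries is no separate result.

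VCAM1, an adhesion receptor for leukocytes (chr1:100719742-100739045), had 104, 93.9 and 91.1 CPM in TCCSUP, against 0 to 0.194 CPM in the other libraries (median 0.0254), with an adjusted p of 0.00392 by edgeR. CD36, a scavenger receptor and fatty acid carrier (chr7:80369575-80679277), had 616, 643 and 639 CPM in TCCSUP, against 0.127 to 5.37 CPM elsewhere (median 0.506), with SW780 the next line (edgeR adjusted p = 0.0376). ALDH1A1, a retinaldehyde dehydrogenase (chr9:72900662-73080442), had 370, 352 and 367 CPM in TCCSUP, against 0.0267 to 1.74 CPM elsewhere (median 0.178, edgeR adjusted p = 0.0268). CD36 and ALDH1A1 passed the test by a narrow margin, and most alternatives that left out 1 other line ended both calls, up to 0.112 for CD36 and 0.077 for ALDH1A1, both without VMCUB.

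The remaining genes of this set come from several tissues. CES1, a carboxylesterase of liver and macrophages, averaged 89.8 CPM ± 2.67 in TCCSUP and reached 0.28 CPM in any other library. NKX2-2, a homeodomain factor of the neural tube and pancreas, averaged 37.5 CPM ± 2.69 in TCCSUP and reached 0.0846 CPM elsewhere. TFF2, a trefoil peptide of gastric mucus, averaged 36.3 CPM ± 4.34 in TCCSUP and reached 0.252 CPM elsewhere. With edgeR the adjusted p was 0.0268 for CES1, 0.00392 for NKX2-2 and 0.0376 for TFF2. Leaving out 1 line at a time took it to at most 0.0734 for CES1 and 0.117 for TFF2, both without VMCUB.

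Several entries of the set share sequence with close copies and are uncertain as single genes. SPANXA1 and SPANXA2, sperm proteins of neighbouring X-linked copies, have the same value in each library, 120, 160 and 171 CPM in TCCSUP and 0.0224 to 0.48 CPM elsewhere. SPANXD averaged 40.3 CPM ± 6.26 in TCCSUP and at most 0.112 CPM in another library, and SPANXC (3.84 CPM) and SPANXB1 (180 CPM) also stood above each other line. KRT81, a hair keratin, had 666, 586 and 692 CPM in TCCSUP and at most 1.23 CPM elsewhere, while its near copies KRT86 and KRT83 averaged 7.68 and 0.187 CPM in TCCSUP. UGT1A8, a glucuronosyltransferase, averaged 167 CPM ± 8.89 in TCCSUP and at most 1.69 CPM elsewhere, but the UGT1A genes share their last exons, and UGT1A1, UGT1A6 and UGT1A10 averaged 14.3, 8.69 and 7.13 CPM in TCCSUP, against up to 31.6, 222 and 529 CPM in other libraries. Its edgeR adjusted p of 0.0427 reached 0.128 without VMCUB.

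**Figure D2:**
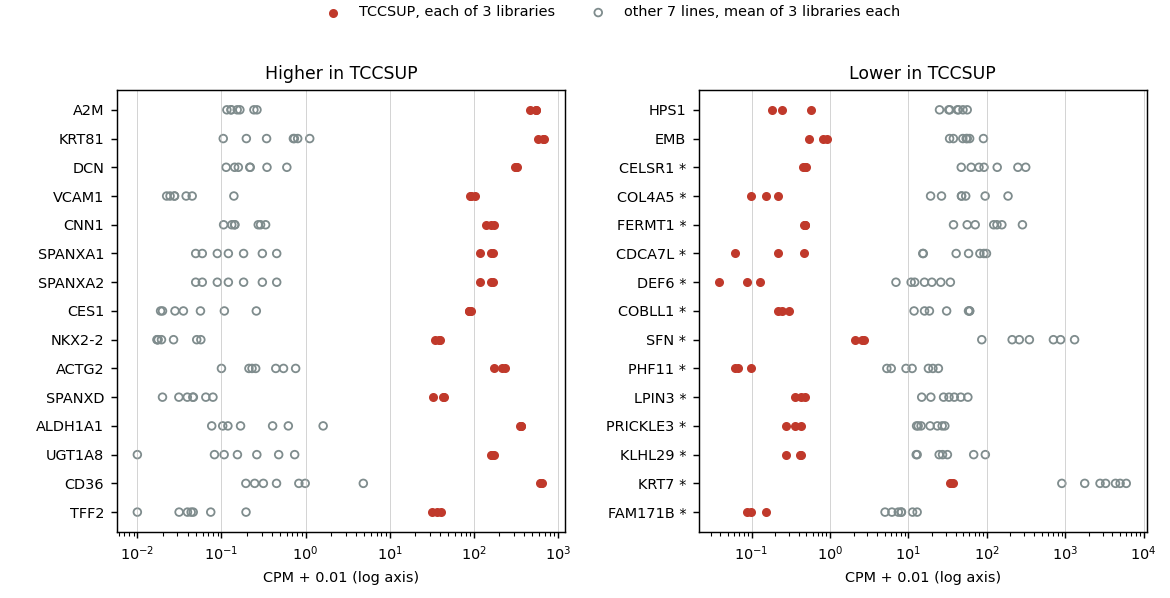
CPM plus 0.01 on a log axis for the named genes with the widest gap between TCCSUP and the nearest other line. Red points are the 3 TCCSUP libraries and open grey circles the means of the other 7 lines, and an asterisk marks lower genes called against each line and not with the line as the unit. In no gene shown do the red points and the grey circles overlap, from A2M (522 CPM on average in TCCSUP) to KRT7 (35.2 CPM). The genes were picked for this gap, so the lack of overlap is no separate result.

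By level alone, 52 genes had at least 5 CPM in all 3 TCCSUP libraries and under 1 CPM in all 21 others, 51 of them protein-coding. The same count ran from 4 in VMCUB to 53 in KU1919 over the other lines. Besides the genes above, those found in TCCSUP alone included SSTR1, a somatostatin receptor, at 83.5 CPM ± 0.957 against at most 0.762 CPM, and VTN, vitronectin, at 37.6 CPM ± 2.51 against at most 0.518 CPM. CHRM2, a muscarinic acetylcholine receptor that smooth muscle uses, averaged 15.7 CPM and at most 0.345 CPM elsewhere. CACNA1C, the pore of the L-type calcium channel, averaged 20.5 CPM and at most 0.213 CPM elsewhere, and EBF1, a factor of B cells and adipocytes, 10.5 CPM and at most 0.0594 CPM. These 5 were chosen from the 52 after their values were seen.

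Lower genes called by both edgeR measures were HPS1 and EMB. HPS1, a subunit of a guanine exchange complex that acts in the making of lysosome-related organelles (chr10:98416198-98446947), had 0.556, 0.172 and 0.233 CPM in TCCSUP, against 24.1 to 59 CPM in the other libraries (median 41.1). Its log2 difference was -6.99 ± 0.78 (edgeR adjusted p = 0.0138). HPS4, which forms that complex with HPS1, averaged 31.9 CPM in TCCSUP and 27 to 73.8 CPM elsewhere, so the partner stayed within the range of the other lines.

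EMB, embigin, an accessory protein of monocarboxylate transporters (chr5:50396192-50443248), had 0.527, 0.804 and 0.908 CPM in TCCSUP, against 33.1 to 92.1 CPM in the other libraries (median 54.4). Its log2 difference was -6.17 ± 0.82 with an edgeR adjusted p of 0.0273, which rose to 0.0503 to 0.077 without HT1197, HT1376, T24, 639V or VMCUB. Its paralogs BSG and NPTN, which serve the same transporters, averaged 651 and 127 CPM in TCCSUP, against 315 to 883 and 60.9 to 156 CPM in the other libraries. Only these 2 lower genes met the rule for named genes.

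Of the 259 genes below each other line, 75 had at least 5 CPM in the lowest other line. The 13 of these with the widest gap beside HPS1 and EMB were added after their values were seen. They did not pass with the line as the unit, where their edgeR adjusted p was 0.0533 to 0.342. CELSR1, a cadherin of planar cell polarity, averaged 0.465 CPM ± 0.0244 in TCCSUP and 44.1 to 338 CPM in the other libraries. FERMT1, an epithelial kindlin that activates integrins, averaged 0.465 CPM ± 0.0049 and 36.6 to 294 CPM elsewhere. COL4A5, a basement membrane collagen chain, averaged 0.146 CPM ± 0.0598 in TCCSUP and 17.3 to 196 CPM elsewhere.

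SFN, stratifin, a cell cycle regulator of squamous epithelia, averaged 2.45 CPM ± 0.339 in TCCSUP and 78.9 to 1339 CPM elsewhere. KRT7, a simple epithelial keratin, averaged 35.2 CPM ± 1.37 in TCCSUP and 873 to 6497 CPM elsewhere. CDCA7L, DEF6, COBLL1, PHF11, LPIN3, PRICKLE3, KLHL29 and FAM171B complete the 13, with averages of 0.0657 to 0.409 CPM in TCCSUP and no other library under 4.42 CPM. By level alone, 16 genes were under 1 CPM in all TCCSUP libraries and at 5 CPM or more in all 21 others. The other lines had 2 (T24) to 35 (639V) such genes.

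The epithelial junction genes had the lowest median of the 26 lists. The lists were chosen with earlier results of these data known, so their order is a description. Of 30 epithelial junction and splicing genes, 0 stood above and 5 below each other line (16.7%, where 1.39% of all genes did), and the median log2 difference of TCCSUP from the median other line was -4.06, beside 0 over all genes tested. None of the 30 passed with the line as the unit. The 5 were the desmosomal DSP, the splicing regulators ESRP1 and ESRP2, the transcription factor OVOL2 and the tricellular junction protein LSR. TCCSUP was the lowest line in 8 of the 30 genes. The summed level of the 30 was 1010.6 CPM in TCCSUP, above 639V (393.5 CPM), and reached 10271.3 CPM in HT1197.

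DSP had 1.84, 1.87 and 1.66 CPM in TCCSUP and 21.3 to 2249 CPM in the other libraries (median 225). ESRP2 had 0.791, 0.718 and 0.545 CPM in TCCSUP and 9.22 to 169 CPM elsewhere (median 123). OVOL2 had 0, 0.0861 and 0 CPM in TCCSUP and 0.0953 to 25.8 CPM elsewhere (median 9.98), so that T24 (0.234 CPM) and 639V (0.371 CPM) lay close above it. ESRP1 averaged 0.124 CPM in TCCSUP and 0.191 to 229 CPM elsewhere, and its call ended without TCCSUP replicate 1 or without replicate 2.

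Low levels were not uniform across this group. CDH1, E-cadherin, had 50.5, 58.2 and 51.2 CPM in TCCSUP, below 5 lines but above T24 (3.62 CPM) and 639V (0.723 CPM). EPCAM averaged 3.08 CPM ± 0.289 in TCCSUP, below 6 lines and above 639V (0.927 CPM). MAL2, a protein of apical transport, averaged 186 CPM in TCCSUP, against 8.68 CPM in T24 and 0.431 CPM in 639V, and CLDN1, claudin 1, averaged 244 CPM in TCCSUP, within the 2.47 to 1252 CPM of the other line means. RAB25 averaged 0.24 CPM in TCCSUP and OVOL1 0.083 CPM, but neither was called against all 7 lines.

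Keratins differed in where TCCSUP stood among the lines. KRT8 had 122, 116 and 127 CPM in TCCSUP, below the 1195 to 20260 CPM of every other library. KRT18, its filament partner, had 2052, 1965 and 2279 CPM in TCCSUP, within the 592 to 15140 CPM of the others and above the means of 5 of the 7 lines. KRT19 averaged 161 CPM ± 14.5 in TCCSUP, below 6 lines and above 639V (5.57 CPM), and KRT80 averaged 557 CPM ± 51.7, above each other line. KRT18 and KRT80 were singled out after their values were seen.

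**Figure D3:**
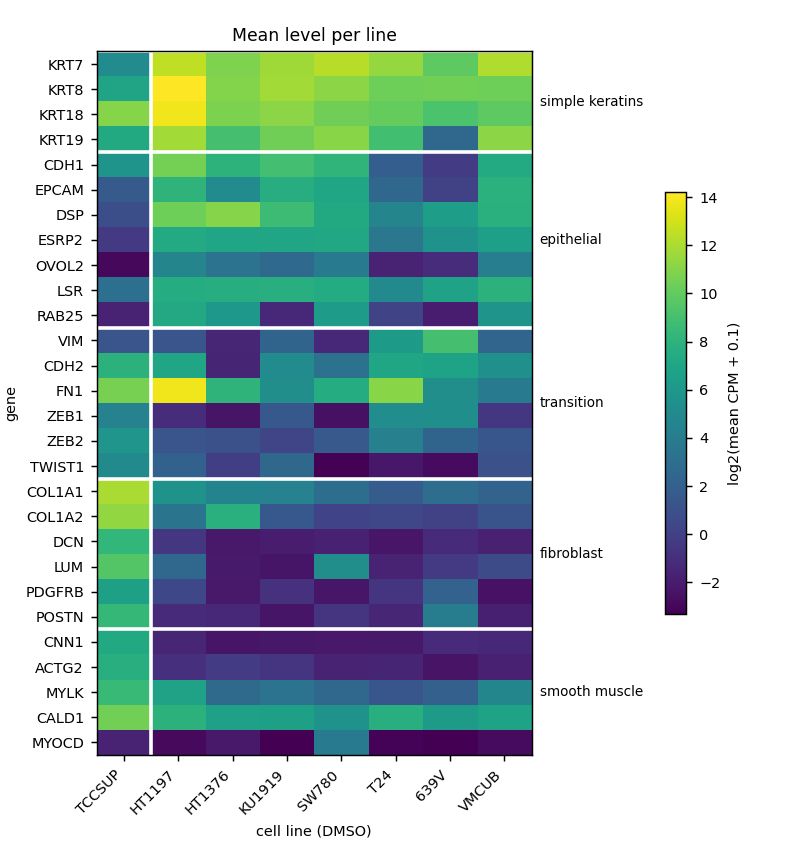
Mean level per line as log2(mean CPM + 0.1) (colour), with genes in rows and TCCSUP in the left column before the other 7 lines. Read along a row, TCCSUP is the darkest of the 8 lines for KRT7, KRT8, DSP, ESRP2, OVOL2 and LSR, and the brightest for the 6 fibroblast genes, CNN1 and ACTG2, while KRT18 (2099 CPM) and VIM (2.32 CPM) lie within the other lines.

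Luminal and basal urothelial genes were mixed. Of 26 luminal genes, 0 stood above and 2 below each other line (KRT7 and KRT8; 7.7%, beside 1.39% of all genes), with a median log2 difference of -0.92. GATA3 averaged 46.1 CPM ± 5.62 in TCCSUP, above 4 lines and below 3, PPARG 75.1 CPM ± 8.36, below none, and FOXA1 31 CPM ± 2.77, above 2 lines and below 2. The uroplakins, which mark the differentiated surface, were low: UPK1A had 0.0191 CPM, UPK1B 0.703, UPK2 0.376 and UPK3A 0.0182 CPM on average in TCCSUP. UPK2 was not the lowest of the 8 lines there, and TBX3 (0.513 CPM), TBX2 (0.225 CPM) and ERBB3 (1.75 CPM) were each below 6 lines.

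Of 30 basal and squamous genes, 0 stood above and 1 below each other line (SFN; 3.3%, beside 1.39% of all genes), with a median log2 difference of -2.23. TP63 had 0.762, 0.574 and 0.415 CPM in TCCSUP, below 6 lines, with 639V (0.329 CPM) at a like level. KRT5 averaged 2.65 CPM ± 0.2 in TCCSUP, where VMCUB, KU1919 and HT1376 had 1579, 1398 and 949 CPM, and HT1197, SW780 and 639V had 3.83, 2.17 and 1.12 CPM. KRT14 averaged 11.9 CPM ± 0.716 in TCCSUP, above 2 lines and below 2. COL17A1, DSC3, KRT6A and DSG3 averaged 0.211 to 1.52 CPM in TCCSUP, each below 5 or 6 lines. The summed level of the 30 was 1266.6 CPM in TCCSUP, above 639V (252.7 CPM), and reached 11918 CPM in VMCUB.

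The urothelial markers thus differed among themselves, with GATA3, PPARG and FOXA1 expressed and the uroplakins, TP63 and KRT5 low.

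Genes of the mesenchymal transition were in part higher in TCCSUP, and vimentin was not. Of 22 tested, 5 stood above each other line (22.7%, where 4.05% of all genes did) and 0 below, and the median log2 difference was 2.14. ZEB2 had 53.2, 58.7 and 55.9 CPM in TCCSUP and 0.873 to 21.4 CPM in the other libraries (median 2.57). TWIST1 had 30.9, 30.9 and 31.7 CPM in TCCSUP and 0 to 5.63 CPM elsewhere (median 0.915). TGFB2, a ligand of the TGF-beta family, had 168, 175 and 165 CPM in TCCSUP and 2.12 to 33.3 CPM elsewhere. ITGA5, a fibronectin receptor subunit, averaged 828 CPM ± 40.8 and at most 375 CPM elsewhere, and PRRX1 averaged only 0.449 CPM. SPARC, the member that differed most from the median other line, was not among the 5. The summed level of the list was 6280 CPM in TCCSUP and 735.6 (KU1919) to 19276 CPM (HT1197) in the other lines.

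ZEB1 averaged 21.7 CPM ± 2.8 in TCCSUP, above 5 lines, with T24 (39.3 CPM) and 639V (42.9 CPM) higher on average. CDH2, N-cadherin, had 235, 241 and 246 CPM in TCCSUP and at most 138 CPM in another library, above 5 lines by the 2-fold rule. VIM, vimentin, the intermediate filament that usually marks mesenchymal cells, had 2.46, 2.04 and 2.46 CPM in TCCSUP. That level was close to HT1197 (2.34 CPM), above HT1376 (0.27 CPM) and SW780 (0.283 CPM), and below KU1919 (4.81 CPM), VMCUB (5.1 CPM), T24 (76.2 CPM) and 639V (531 CPM). TWIST2 and FOXC2 were at 0 counts in all 3 TCCSUP libraries, which allows up to 0.0879 CPM in a library by counting error alone.

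Among the 26 lists, which were chosen with earlier results of these data known, fibroblast markers had the highest median. Of the 15 markers, 9 stood above each other line (60%, beside 4.05% of all genes) and 0 below (1.39% of all genes). With the line as the unit 2 passed (COL1A1 and DCN), and the median log2 difference was 5.36. COL1A1, a chain of type I collagen (chr17), had 4554, 3774 and 3861 CPM in TCCSUP and 2.79 to 49 CPM in the other libraries (median 8.15, edgeR adjusted p = 0.026). COL1A2, the partner chain, had 2992, 2447 and 2514 CPM in TCCSUP and 0.834 to 225 CPM elsewhere. LUM, lumican, a proteoglycan next to DCN on chromosome 12, had 717, 732 and 766 CPM in TCCSUP and 0.0323 to 42.4 CPM elsewhere.

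POSTN, periostin, averaged 325 CPM ± 11.8 in TCCSUP and at most 17.6 CPM in another library. PDGFRB, a platelet-derived growth factor receptor, averaged 101 CPM ± 6.46 and at most 4.86 CPM elsewhere. COL3A1, COL6A3 and PDGFRA averaged 320, 31.3 and 6.52 CPM in TCCSUP and were also above each line. THY1 averaged 296 CPM in TCCSUP, level with 639V (284 CPM), while COL5A1 averaged 1.73 CPM, under the 719 CPM of HT1197. The summed level of the 15 was 9732 CPM in TCCSUP and 26 to 1998 CPM in the other lines.

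Smooth muscle markers followed. Of 13, 6 stood above each other line (46.2%, beside 4.05% of all genes) and 0 below (1.39% of all genes). CNN1 and ACTG2 passed with the line as the unit, and the median log2 difference was 3.77. MYLK had 336, 366 and 360 CPM in TCCSUP and 1.9 to 110 CPM elsewhere. ACTA2, the vascular smooth muscle actin, had 123, 141 and 152 CPM in TCCSUP and 1.42 to 43 CPM elsewhere. CALD1, caldesmon, averaged 1450 CPM ± 19.9 and at most 245 CPM elsewhere, and LMOD1, leiomodin, averaged 18 CPM ± 1.52 and at most 2.43 CPM elsewhere.

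The group was not complete. TAGLN averaged 622 CPM in TCCSUP, above 5 lines, with T24 reaching 445 CPM. MYH11, the smooth muscle myosin, averaged 1.92 CPM, DES, desmin, 1.45 CPM, and MYOCD, the coactivator that drives smooth muscle genes, 0.224 CPM in TCCSUP, against up to 2.7, 1.66 and 15.2 CPM in other libraries. The summed level of the 13 was 3158 CPM in TCCSUP and 170 to 1099 CPM in the other lines.

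Leukocyte and endothelial markers gave a few high genes beside some defining markers at or near 0. PTPRC, the leukocyte phosphatase CD45, had 26.7, 28.1 and 27.8 CPM in TCCSUP and 0 to 0.6 CPM elsewhere (edgeR adjusted p = 0.0376), and CD14 had 33.1, 30.1 and 35.6 CPM in TCCSUP and 0.168 to 6.03 CPM elsewhere. Of the 12 leukocyte markers, 8 could be tested and these 2 stood above each line (25%, beside 4.05% of all genes). CD3D, CD3E, CD8A and MS4A1 were at 0 counts in all 3 TCCSUP libraries, LYZ averaged 0.00957 CPM and ITGAM 0.0484 CPM. The 12 summed to 88.8 CPM in TCCSUP and 14 to 104 CPM in the other lines. Of the 8 tested, 5 lay above the median other line, and the median log2 difference was 0.79.

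Among endothelial markers, TEK, the angiopoietin receptor, averaged 39.1 CPM ± 1.35 in TCCSUP and at most 2.89 CPM elsewhere, the 1 member of 8 tested that stood above each line (12.5%, beside 4.05% of all genes). KDR averaged 0.00864 CPM, CLDN5 0.028 CPM and CDH5 0.0981 CPM in TCCSUP. The 10 endothelial markers summed to 174 CPM in TCCSUP and 22.2 to 240 CPM in the other lines. Of the 8 tested, 5 lay above the median other line and TCCSUP was the highest line in 2. Their median log2 difference was 1.21. The part of other cell types in the levels of the 4 marker lists was not tested.

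**Figure D4:**
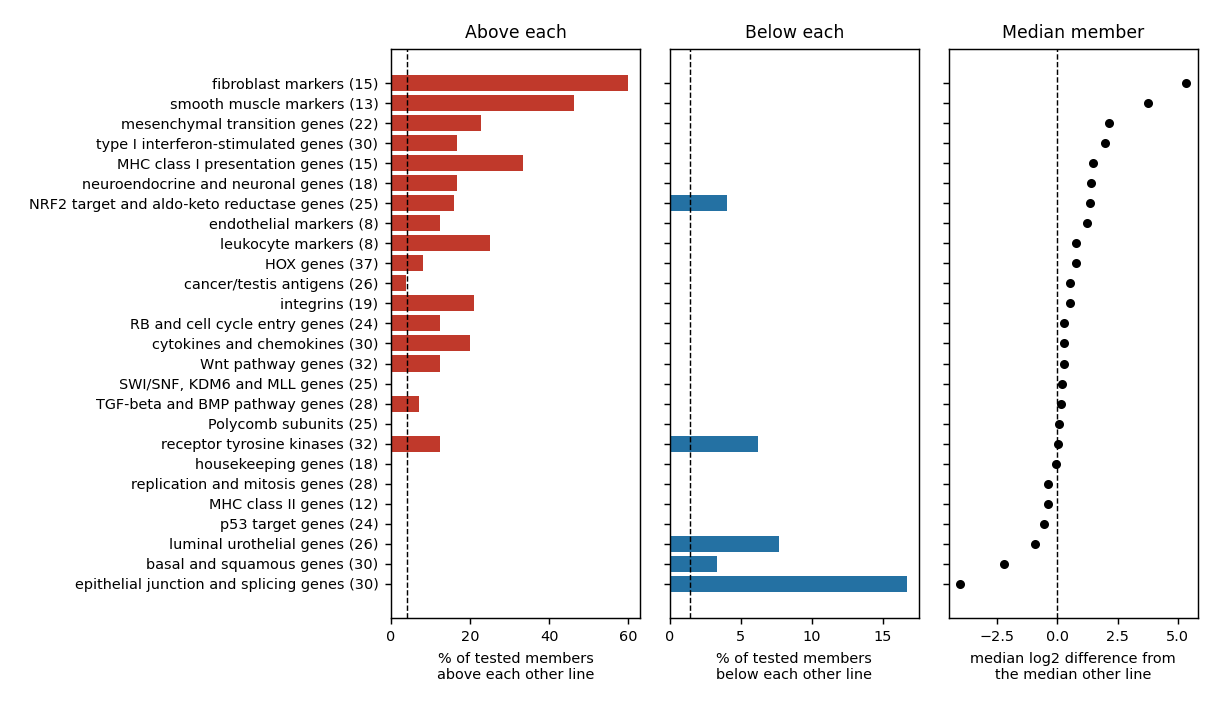
For each of 26 gene lists, ordered by median and with the number of members tested in parentheses, the percentage of members above each other line (left), the percentage below each (middle) and the median log2 difference of TCCSUP from the median other line, on log2(CPM + 0.1) (right). Dashed lines give the same over all 18643 genes: 4.05%, 1.39% and 0. Fibroblast markers (60% above) and epithelial junction genes (16.7% below) are at the ends. The lists were chosen with earlier results of these data known.

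Among cell cycle genes, 3 of 24 of the RB pathway list stood above each line (12.5%, beside 4.05% of all genes) and 0 below (1.39% of all genes). CDKN1C, an inhibitor of cyclin-dependent kinases, had 22.8, 20.1 and 22.4 CPM in TCCSUP and 0.166 to 1.74 CPM elsewhere (edgeR adjusted p = 0.0427 with the line as the unit). CDKN2B, an inhibitor of CDK4 and CDK6, averaged 179 CPM ± 6.07 in TCCSUP and at most 50.7 CPM elsewhere, and its neighbour CDKN2A averaged 499 CPM ± 53.8, above 5 lines, with VMCUB (653 CPM) higher. RB1, the pocket protein they act through, had 21.2, 19.9 and 21 CPM in TCCSUP, below 4 lines, with 639V (16.1 CPM) and HT1376 (6.68 CPM) lower still.

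The 28 replication and mitosis genes had 0 members above or below each line and a median log2 difference of -0.38, and the 24 p53 target genes likewise had 0 and 0 with a median of -0.56. None of the 25 Polycomb subunits and none of the 25 tested SWI/SNF, KDM6 and MLL genes was called, with medians of 0.07 and 0.17. Over all genes 4.05% stood above and 1.39% below each line, so few or no calls are usual in lists of this size. EZH2, the target of CPI-0209, averaged 99 CPM ± 2.73 in TCCSUP, the highest mean of the 8 lines but only 1.06 times that of KU1919. KDM6A, a demethylase of the mark that EZH2 writes, averaged 56.9 CPM ± 6.13, above 2 lines and below none. All 19 genes that were named regardless of outcome missed the threshold with the line as the unit (edgeR adjusted p of 0.945 to 0.984).

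E2F3, a transcription factor that RB1 restrains, had 447, 443 and 418 CPM in TCCSUP, against 31.7 to 172 CPM in the other libraries (median 40.6), and HT1376 (161 CPM) was the next line. Its protein-coding neighbours CDKAL1 and SOX4 stood above each line too. CDKAL1 had 239, 246 and 229 CPM in TCCSUP and 9.29 to 70.3 CPM elsewhere, with HT1376 (68.5 CPM) next. SOX4 had 619, 564 and 532 CPM in TCCSUP and 5.75 to 275 CPM elsewhere, with HT1197 (264 CPM) next. The 3 genes and PRL (0.863 CPM) fill chr6:20401906-22297501 on GRCh38 as a run of 4 tested protein-coding genes above each line.

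The genes on either side of that run were mixed, and none of those plotted was above each line. MBOAT1 averaged 2.98 CPM and ID4 0.146 CPM in TCCSUP, each below 5 lines, and DEK averaged 182 CPM and MRS2 35 CPM, called against none. Farther out, RBM24 averaged 14.3 CPM, GPLD1 13.2 CPM and RIPOR2 32.6 CPM in TCCSUP, each above 6 lines, at 5.35, 5.57 and 9.36 times the median line, and C6orf62 averaged 322 CPM, above 5 lines, at 2.35 times. NHLRC1 (0.0655 CPM) was below each line. This neighbourhood and the runs described next were chosen after their values were seen.

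**Figure D5:**
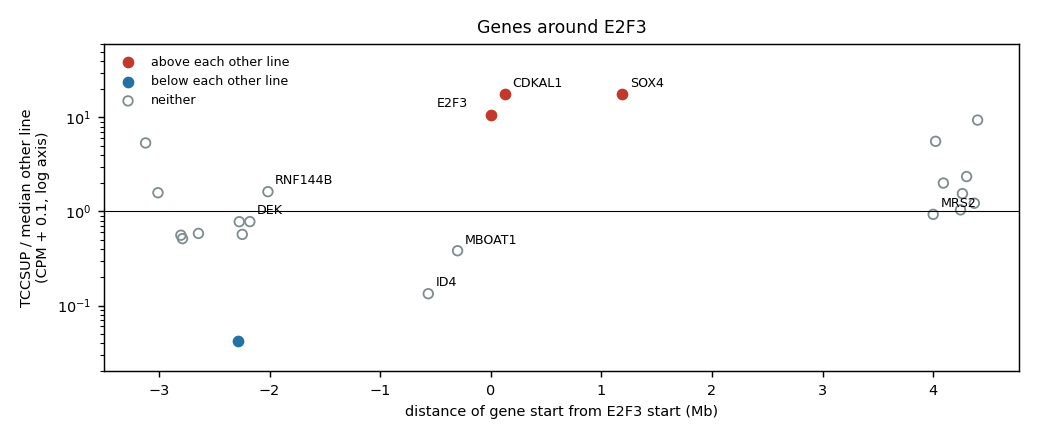
Ratio of the TCCSUP mean to the median other line (CPM + 0.1 in both, log axis) against the distance of each gene's start from that of E2F3 in Mb, for protein-coding genes on both sides with at least 1 CPM in TCCSUP or the median line. Red points are above each other line, blue below each, open grey neither. E2F3, CDKAL1 and SOX4 have ratios of 10.7, 17.6 and 17.7, and MBOAT1, 0.3 Mb before E2F3, has 0.382.

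Runs of at least 3 consecutive tested protein-coding genes above each line were found at 14 places, and below each line at 1. Genes that were not tested were skipped and may lie between the members of a run. EPYC, LUM and DCN, a cluster of small proteoglycans (chr12:90963679-91183123), had 1.05, 738 and 317 CPM in TCCSUP. LHX9, NEK7, ATP6V1G3 and PTPRC (chr1:197911902-198757476) had 95.6, 433, 1.92 and 27.5 CPM in TCCSUP, and LHX9, a homeodomain factor of limb and gonad, reached at most 1.2 CPM elsewhere. AKR1B1, AKR1B10 and AKR1B15, aldo-keto reductases (chr7:134442350-134579875), had 2393, 326 and 4.13 CPM in TCCSUP and at most 686, 12.6 and 1.01 CPM elsewhere.

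Of the other runs, 1 joined TWIST1 with POLR1F and TMEM196 (chr7:19020991-19773598), at 31.1, 127 and 17.1 CPM in TCCSUP. BDKRB2 and BDKRB1, the bradykinin receptors, lay in a run with C14orf132 (chr14:96039324-96268967) and had 63.6 and 34 CPM in TCCSUP. PCDHB13, PCDHB14 and PCDHB15, clustered protocadherins that share sequence, had 22.3, 10.8 and 14.9 CPM in TCCSUP. Below each line, GPR137B, ERO1B and EDARADD (chr1:236142505-236502915) had 0.755, 0.259 and 0.208 CPM in TCCSUP, with medians of 9.16, 6.34 and 12.1 CPM over the other libraries. Neighbours can share reads where annotation overlaps, and the use of strand in the counting is not stated. Runs made up of a single gene family, such as the AKR1B, SPANX and protocadherin runs, may also share reads between members.

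Receptor tyrosine kinases were called in both directions. Of 32 receptor tyrosine kinases 4 stood above each line (PDGFRA, PDGFRB, DDR2 and NTRK3) and 2 below (FGFR4 and MERTK), with a median log2 difference of 0.04. These are 12.5% and 6.2% of the list, beside 4.05% and 1.39% of all genes. DDR2, a receptor for fibrillar collagen, had 309, 334 and 316 CPM in TCCSUP and 0.291 to 15.5 CPM elsewhere. FGFR1 averaged 189 CPM ± 6.48 in TCCSUP, above 6 lines, with 639V (97.2 CPM) next. FGFR3, often active in luminal bladder tumours, averaged 1.43 CPM, below 5 lines, and EGFR averaged 248 CPM ± 23.4, below 3 lines and above 1.

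Of 19 integrins, 4 stood above each line (21.1%, beside 4.05% of all genes). ITGA11, a collagen receptor subunit of fibroblasts, had 170, 208 and 208 CPM in TCCSUP and 0.268 to 2.32 CPM elsewhere (edgeR adjusted p = 0.00392). ITGB8 averaged 272 CPM ± 12.3 and at most 126 CPM elsewhere, and ITGB7 averaged 5.11 CPM. ITGB6, an epithelial subunit, averaged 3.85 CPM in TCCSUP, below 5 lines.

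Of 32 Wnt pathway genes, 4 stood above each line (12.5%, beside 4.05% of all genes). WNT5A, a ligand of the pathway branch that does not use beta-catenin, had 313, 303 and 286 CPM in TCCSUP and 0.0594 to 23.1 CPM elsewhere, while WNT7A, an epithelial ligand, averaged 0.109 CPM, below 6 lines. The receptors FZD7 and FZD2 averaged 155 and 96.4 CPM and LGR6 6.95 CPM in TCCSUP. Of 28 TGF-beta and BMP pathway genes 2 stood above each line, TGFB2 and GREM1 (7.1%, beside 4.05% of all genes). GREM1, gremlin, a secreted BMP antagonist, had 3.1, 3.01 and 2.67 CPM in TCCSUP and 0 counts in all 21 other libraries, so that it was at least 30.2-fold higher at a floor of 3 counts per library. It did not pass with the line as the unit (edgeR adjusted p = 0.34).

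Interferon-stimulated and antigen presentation genes were mostly above the median line. All 30 type I interferon-stimulated genes lay above the median other line, where 9252 of all 18643 genes did, with a median log2 difference of 1.96. Of these, 5 stood above each line (16.7%, beside 4.05% of all genes). OASL had 287, 306 and 315 CPM in TCCSUP and 0.52 to 35.4 CPM elsewhere (median 5.64), and RSAD2, viperin, averaged 69 CPM ± 1.4 and at most 15.8 CPM elsewhere. IFIT3, IFIT2 and IFI44 averaged 219, 113 and 82 CPM in TCCSUP. MX1 averaged 186 CPM in TCCSUP, above 5 lines, but HT1197 reached 633 CPM, and the summed level of the list was 3047 CPM in TCCSUP and 400.1 to 10532 CPM in the others.

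Of 15 MHC class I genes 5 stood above each line (33.3%, beside 4.05% of all genes), with a median log2 difference of 1.49. NLRC5, the transactivator of the class I genes, had 84.3, 86.5 and 86.5 CPM in TCCSUP and 0.953 to 36.1 CPM elsewhere. HLA-B averaged 685 CPM ± 34.7 in TCCSUP and at most 232 CPM elsewhere, and HLA-C 889 CPM ± 41.6 and at most 315 CPM, although reads of these alleles can be shared. PSMB9 and TAPBP averaged 101 and 375 CPM in TCCSUP. None of the 12 class II genes was called (4.05% above and 1.39% below over all genes), and their median log2 difference was -0.4.

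Secreted signals, retinoid and xenobiotic enzymes, and HOX genes complete the description. Of 30 cytokines and chemokines 6 stood above each line (20%, beside 4.05% of all genes). CSF1, the macrophage growth factor, had 213, 228 and 241 CPM in TCCSUP and 1.21 to 19.3 CPM elsewhere. IL6 averaged 12.2 CPM ± 1.36 and at most 4.63 CPM elsewhere, and CCL5, CCL28, CX3CL1 and IL33 averaged 2.5 to 21.4 CPM in TCCSUP. CXCL16 averaged 1.06 CPM in TCCSUP, below 6 lines.

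Of 25 NRF2 target and aldo-keto reductase genes 4 stood above each line (ALDH1A1, AKR1B10, AKR1B1 and TXNRD1; 16%, beside 4.05% of all genes) and 1 below (GPX3; 4%, beside 1.39%). TXNRD1, thioredoxin reductase, averaged 1478 CPM ± 21.4 in TCCSUP and at most 680 CPM elsewhere. AKR1C1, AKR1C2 and AKR1C3, close copies that can share reads, averaged 345, 97.3 and 257 CPM in TCCSUP, each above 6 lines and with a higher mean in SW780. GPX3 averaged 0.93 CPM in TCCSUP, and its call ended under most alternatives, since T24 (1.86 CPM) and HT1376 (2.5 CPM) were near.

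Of 37 HOX genes 3 stood above each line (8.1%, beside 4.05% of all genes), HOXA9, HOXA11 and HOXC12, at 38.5, 34.2 and 2.17 CPM in TCCSUP and at most 7.66, 16.8 and 0.0897 CPM elsewhere. HOXB8, HOXC8, HOXC10 and HOXC11 averaged 5.68 to 33.6 CPM in TCCSUP, each above 5 lines, with 639V the highest other line for all 4. Of 18 tested neuronal genes 3 stood above each line (16.7%, beside 4.05% of all genes), NCAM1, TUBB2B and SNAP25, a synaptic SNARE protein, at 32.3 CPM ± 1.91 and at most 2.59 CPM elsewhere. Of 26 tested cancer/testis antigens 1 did, MAGEA1 (3.15 CPM), a share of 3.8% beside 4.05% over all genes. Of 18 housekeeping genes none was called (4.05% above and 1.39% below over all genes), and their median log2 difference was -0.07.

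The CPI-0209 libraries of the 8 lines gave a second set of samples for the same contrast, in which 823 genes stood above and 206 below each other line. Of the genes above each line, 593 were shared, 72.1% of the CPI-0209 list and 78.5% of the DMSO list. Of the genes below each line, 131 were shared, 63.6% of the CPI-0209 list and 50.6% of the DMSO list. HPS1 averaged 0.354 CPM and EMB 0.956 CPM in CPI-0209-treated TCCSUP, against 24.8 to 56.6 and 30.2 to 78.6 CPM in the other treated lines. With the line as the unit the CPI-0209 libraries ended the call of A2M, whose log2 difference was 6.9 (edgeR adjusted p = 0.489), and the calls of CES1, ALDH1A1, TFF2, NKX2-2, SPANXA1, SPANXA2, SPANXD and EMB.

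Some of the genes missing from DMSO cells were not missing from treated ones. SERINC5 averaged 9.85 CPM in CPI-0209-treated TCCSUP and 0.88 CPM in DMSO-treated TCCSUP, JMY 8.02 and 0.643 CPM, KLHL29 3.95 and 0.36 CPM, and COBLL1 2.61 and 0.242 CPM. The first 2 of these were no longer below each line. The treated values were scaled over all 48 libraries, and the effect of the treatment itself was not tested here.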

How the data were processed

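Whole-number counts per Ensembl gene were deposited by the authors for 48 libraries. Per the submitters' processing notes they used STAR 2.7.3a and RSEM 1.3.1 with hg38, and the annotation, the rounding and the use of strand are not given in the sources used here. Libraries were grouped by line and treatment from their labels. Symbols came from a name table for 35414 of 35535 genes and coordinates from GENCODE 29 on GRCh38.

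With R 4.3.3 and edgeR 4.0.16 (TMM, filterByExpr, robust quasi-likelihood tests, Benjamini-Hochberg adjustment over all genes tested), counts were summed over the 3 DMSO replicates of a line and TCCSUP was set against the other 7 lines (6 residual degrees of freedom). In a second fit of 24 libraries TCCSUP was contrasted with each line (16 residual degrees of freedom). Both were tested on simulated data. A log2 difference given for the first fit is against the mean count of the other 7 lines, not the mean of their logs. DESeq2 1.42.0 and limma 3.58.1 served as alternatives.

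Always named were EZH2, KDM6A, RB1, CDKN2A, TP63, GATA3, PPARG, FOXA1, CDH1, EPCAM, VIM, ZEB1, CDH2, EGFR, FGFR1, FGFR3, KRT5, KRT14 and UPK2. Then came up to 15 higher and 15 lower genes with the widest gap to the nearest line, on log2 of mean CPM plus 0.1, called by both measures and with at least 5 CPM in the higher. Up to 6 members of each list with the largest difference from the median line could be added. Other members were named after their values were seen. Members and lists were chosen with earlier results of these data known. Replicate numbers did not pair the libraries (median correlation of same-numbered deviations -0.007, range -0.127 to 0.347).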

Additional observations from a re-analysis of the deposited data

Results flagged for a closer look

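VCAM1 was the 1 gene of 36 named genes at which a line lay far from the rest of the 7 other lines, on log2 of mean CPM plus 0.1. KU1919 had 0.131 CPM, where the next line had 0.0349 CPM, and its gap was 0.745 of the whole range (critical value 0.568). Chance gives about 1 such gene in 20. TCCSUP averaged 96.3 CPM.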

How the results depend on the processing

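With the line as the unit, 74 genes were higher and 2 lower in TCCSUP. RLE scaling, library totals, no filter on low counts and thinned libraries gave 62 to 74 higher and 2 lower, and leaving out a TCCSUP replicate 70 to 74 and 2. Leaving out 1 other line gave 25 to 60 higher and 1 to 3 lower. The CPI-0209 libraries gave 42 and 1, limma-trend 99 and 22, and DESeq2 321 and 256. The contrast of 24 libraries with the mean of the other lines gave 6992 and 6246, since it tests against the spread within lines. Same-numbered replicates did not deviate together, and that contrast with a replicate block gave 7005 and 6233. Against each line, the replicate block gave 755 above and 258 below, no fold threshold 1542 and 987, a 4-fold threshold 396 and 123, and leaving out a TCCSUP replicate 746 to 773 and 252 to 280. The log2 difference of GATA3 turned from -0.71 to 0.27 with limma-trend and 0.26 with both 24-library contrasts, and that of FOXA1 from -0.79 to 1.34, 1.36 and 1.36. The edgeR fit of line sums set TCCSUP against the mean count of the other lines. Limma-trend and the 24-library contrasts averaged log levels over those lines instead. The part of this in the change of sign was not tested. Among 36 genes with the line as the unit, 600 of the repeated values kept their direction and their call or lack of one. A further 44 lost the call, 34 gained one in the 24-library contrasts and 6 changed sign (GATA3 and FOXA1, above). The 36 included the genes named regardless of outcome, none of which was called in the main test. Where these stayed uncalled they counted among the 600, so the 600 does not measure how stable the calls were. Only called genes could give the 44. Among 122 genes against the nearest line, 1204 values kept direction and call and 16 lost the call.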
